A study of Mus musculus with 6 samples.

Results

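Txnip and 5 genes of glucose entry were followed through 1 day of mesoderm differentiation. The 6 genes were Txnip and Arrdc4, which encode alpha-arrestins, Slc2a1 and Slc2a3, which encode the glucose transporters GLUT1 and GLUT3, and Hk1 and Hk2, which encode hexokinases. They were taken by symbol from the array annotation, which gave 14 probe sets of 45101 and 6 genes of 18193. The choice of genes was made with the difference between the days already known, so their levels and changes are given here as a description, with errors and without tests. A further probe set that names Hk1 together with other genes was left out.

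The cells were mouse E14 embryonic stem cells of the 129P2/OlaHsd background that carry an Msgn1-Venus reporter, the line named Msgn1RepV. All arrays came from a monolayer on gelatin in a DMEM-based medium. It held recombinant Noggin at 200 ng/mL, which blocks BMP ligands, recombinant R-spondin3 at 10 ng/mL, which strengthens Wnt signalling, DMSO at 0.5% and fetal bovine serum at 15%. The groups were Venus-positive cells sorted at day 4 and Venus-positive cells sorted at day 3, with 3 biological replicates each and 1 array per replicate. Both groups come from 1 reporter line and 1 gate, no unsorted or Venus-negative cells enter the comparison, and the labels do not say whether a day 4 and a day 3 sample came from the same culture. The p-values below measure the spread between these replicates. Values are MAS5 signals, the linear intensities of the Affymetrix MAS5 algorithm, and means are given ± SD over 3 arrays of a day.

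Cells take up glucose through facilitative transporters and trap it by phosphorylation, the step that hexokinases catalyse. Txnip binds thioredoxin and promotes the removal of glucose transporters from the cell surface, and Arrdc4 is a related alpha-arrestin with a similar action on glucose uptake. Both genes are known to be switched on when glucose 6-phosphate builds up, through the factor MondoA (gene Mlxip) and its partner Mlx, so that uptake is restrained when sugar phosphate is plentiful. In the presomitic mesoderm of mouse and chick embryos glycolysis is known to be graded, with its highest activity at the posterior end.

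The promoters of Txnip and Arrdc4 are shown because MondoA is known to act on Txnip through a carbohydrate response element, a pair of E-box-like boxes set 5 bases apart. The sequences are those of RefSeq on GRCm38.p6, the 250 bases before the annotated start, 5′ to 3′ on the strand of the gene. The Txnip stretch is chr3:96557707-96557956 on the plus strand and the Arrdc4 stretch is chr7:68749239-68749488 on the minus strand. Capitals mark matches to that pair (CACGNG, any 5 bases, CACGNG), to the E-box CACGTG and to CCAAT, which reads ATTGG where it lies on the other strand. All were searched on both strands.
Txnip: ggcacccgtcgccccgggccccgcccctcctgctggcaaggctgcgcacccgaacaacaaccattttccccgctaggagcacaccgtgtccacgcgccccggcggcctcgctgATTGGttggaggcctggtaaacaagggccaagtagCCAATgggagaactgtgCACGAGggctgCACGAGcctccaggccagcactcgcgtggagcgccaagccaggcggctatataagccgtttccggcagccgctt
Arrdc4: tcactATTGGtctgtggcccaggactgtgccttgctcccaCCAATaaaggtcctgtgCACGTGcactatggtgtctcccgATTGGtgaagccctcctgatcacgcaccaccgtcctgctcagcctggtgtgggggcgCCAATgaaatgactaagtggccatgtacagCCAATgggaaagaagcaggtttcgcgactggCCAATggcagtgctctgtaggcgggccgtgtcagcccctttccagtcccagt
Txnip held 1 match to the paired boxes, at -85 to -69 from the start, and 2 matches to CCAAT, at -137 to -133 and -102 to -98. Arrdc4 held no such pair in this window. It held 1 E-box at -193 to -188 and 6 matches to CCAAT.

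Over 32851 RefSeq promoters of 300 bases, from 250 before to 50 after the start, the paired boxes were found in 16, or 0.0487%. The E-box was found in 7.15% and CCAAT in 37.4%. The 16 promoters belong to 15 genes, of which 8 had a probe set bright enough for the comparison of the days. The log2 changes of the 7 other than Txnip lay between -0.29 and 0.20. The pattern was searched with its use in Txnip already known, so the Txnip match is no test. Only exact matches were counted, so a looser pair, in Arrdc4 or elsewhere, would be missed. Binding of MondoA was not measured, and a match is a run of letters and not a shown site.

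Slc2a1 and Hk2 are textbook targets of hypoxia-inducible factor, and ACGTG is a form of the core of its response element. Other forms were not searched, binding of the factor was not measured, and a match is not a shown site. ACGTG, which every CACGTG also contains, was found in 19.6% of the promoters of 300 bases. Slc2a1 held 1 and Hk2 held 2, shown here in capitals with their flanks, each read along the strand of the gene. The Slc2a1 stretch is chr4:119108691-119108731 on the plus strand, and the Hk2 stretches are chr6:82774658-82774698 and chr6:82774484-82774524 on the minus strand, where the match is to the other strand and reads CACGT.
Slc2a1: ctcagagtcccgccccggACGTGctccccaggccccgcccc
Hk2 distal: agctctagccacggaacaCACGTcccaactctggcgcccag
Hk2 proximal: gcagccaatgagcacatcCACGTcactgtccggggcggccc
Neither gene held the paired boxes or the E-box CACGTG. Of the 2 annotated Hk1 promoters, neither held them, and 1 had 2 ACGTG cores, both after the start. TATAAA was found in 13.6% of all promoters and, among these genes, in Slc2a1, at 29 to 34 after the start.

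Trimmed means of the 6 arrays as deposited lay within 1.10% of each other, so no further scaling was applied. The array of day 4 replicate 1 stood apart in the ratio of 3′ to 5′ signal of its control probe sets, which was 14.0 for Gapdh. Day 4 replicates 2 and 3 had Gapdh ratios of 3.19 and 2.63, and day 3 ratios spanned 2.43 to 2.64. Values without that array are therefore given beside the results. Markers of cell types were compared between the days, tested as all genes were. Without Venus-negative cells this describes shifts between the sorted cells of each day and cannot check the gate. Of the 8 presomitic markers, 2 rose (Rspo3 and Mesp2), Msgn1 fell to 33.2 ± 7.06 at day 4, against 74.6 ± 15.0 at day 3, and the other 5 overlapped between the days and did not pass (limma, adjusted p under 0.05 over all genes). Their summed signal, 4877 to 5117 at day 4 and 3031 to 3233 at day 3, was mostly Rspo3, with 2695 ± 257 at day 4 and 1275 ± 39.3 at day 3. All 6 pluripotency markers fell, L1td1 by 10.3-fold, Fgf5 by 4.59-fold, Pou5f1 by 3.76-fold and Tdgf1 by 1.18-fold. Tdgf1 made up most of their sum, which was 5707 to 5902 at day 4 and 8427 to 8745 at day 3. Of the 6 cardiac and lateral plate markers 4 rose (Isl1, Hand2, Myl7 and Gata4), with sums of 865 to 932 at day 4 and 415 to 440 at day 3. Nkx2-5 was at 23.0 ± 4.91 at day 4 and 26.6 ± 3.74 at day 3. Tnnt2 was at 14.1 ± 8.59 at day 4 and 15.9 ± 3.55 at day 3. Both were dim, overlapped between the days and did not pass. Of the 6 endothelial and blood markers 1 rose, Kdr, which lateral and early mesoderm also express, with 496 ± 92.7 at day 4 and 216 ± 19.6 at day 3. It made up most of the sum of 495 to 687 at day 4 and 255 to 309 at day 3. Cdh5, Hbb-bh1 and Gata1 did not pass, Tal1 was too dim to test, and Pecam1 was under the signal limit of 13.5 on all arrays. Of the 5 endoderm markers measured, Sox17 fell by 3.82-fold and Foxa2 by 2.03-fold, Cxcr4 did not pass at 109 ± 29.3 at day 4 and 73.7 ± 9.90 at day 3, and Afp and Ttr were under that limit on all arrays. The endoderm sum was 145 to 177 at day 4 and 174 to 225 at day 3. Of 5 neural markers 3 were under the limit on all arrays and only 1, Pax6, was tested. It did not pass, at 14.8 ± 3.35 at day 4 and 27.4 ± 8.05 at day 3. Tubb3, too dim to test, was at 3.95 ± 2.20 at day 4 and 16.3 ± 5.46 at day 3. For both, all day 4 arrays were below all day 3 arrays. The neural sums were 23.7 to 26.1 at day 4 and 48.4 to 60.8 at day 3. The part of these shifts in the results that follow was not tested, and in sorted bulk cells fewer cells of a type and less RNA per cell cannot be told apart.

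The alpha-arrestin genes were higher at day 4. Txnip, read by 1415996_at, had signals of 1495, 1773 and 1689 on the day 4 arrays and 335, 381 and 308 on the day 3 arrays. The lowest day 4 array was above every day 3 array, and the 3 replicates of each day lay close together. The means were 1652 ± 142 at day 4 and 341 ± 37.2 at day 3, a 4.85-fold difference (the ratio of geometric means). On the log2 scale Txnip lay 2.28 ± 0.11 higher, where the error is the SE of the fit, here and for every log2 change. By size this was the 20th largest rise among the 12284 genes whose probe set passed the filter on dim signals. Without day 4 replicate 1 the change was 2.35.

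**Figure D1:**
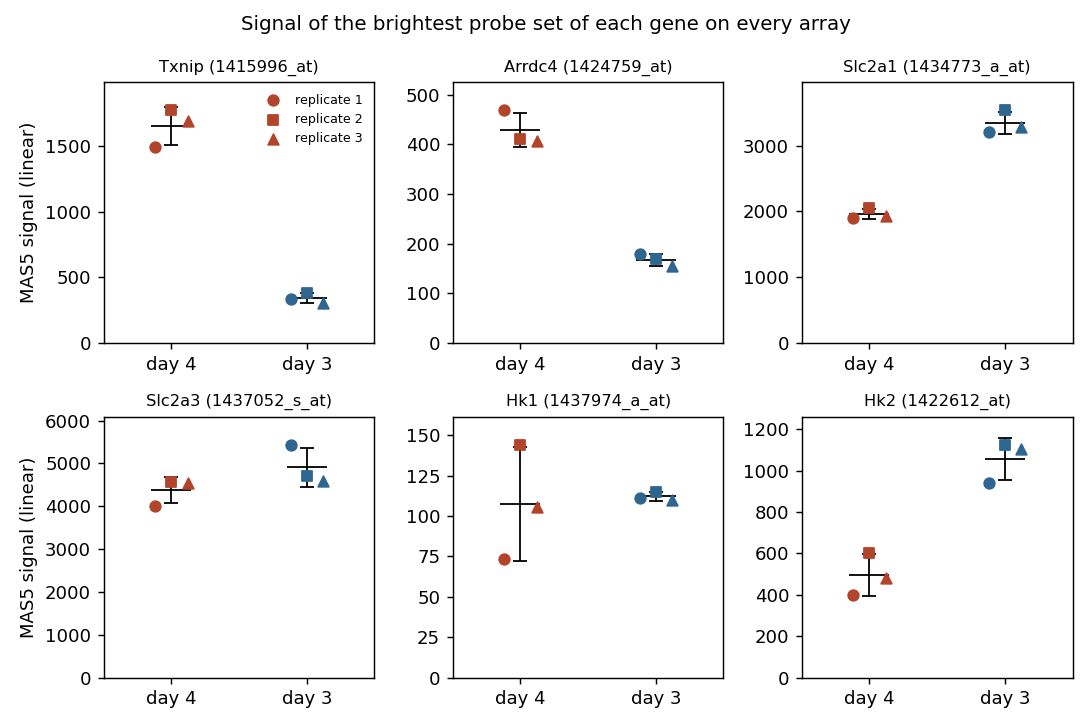
MAS5 signal (linear, axes from 0) of the brightest probe set of each of the 6 genes on every array, day 4 left and day 3 right. Points are arrays, with a symbol for each replicate, and bars are the mean and SD of 3 arrays. Txnip and Arrdc4 lie higher on all day 4 arrays, Slc2a1 and Hk2 lower, and the Hk1 points of the days overlap.

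The second Txnip probe set, 1415997_at, was dim. It read 5.38, 35.6 and 63.4 at day 4 and 19.1, 15.2 and 4.36 at day 3. The days overlapped, because day 4 replicate 1 was the second lowest of all 6 arrays. That array was at 10.9% of the mean of the other day 4 arrays here, against 86.4% for the bright probe set. The change of the dim probe set was 1.09 ± 0.90, or 2.14 without day 4 replicate 1. The mean over both probe sets gave a log2 change of 1.68 for Txnip. Both name the same gene in the annotation, and which part of the transcript each reads is not given in the sources used here.

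Arrdc4 was measured by 2 probe sets that both lay higher at day 4. The brighter, 1424759_at, read 468, 411 and 407 at day 4 and 178, 168 and 155 at day 3. The second, 1426818_at, read 140.5, 181.5 and 156 at day 4 and 93.3, 88.3 and 72.0 at day 3. Neither overlapped between the days, and on the brighter one day 4 replicate 1 was the highest of its day. The brighter one averaged 429 ± 34.3 at day 4 and 167 ± 11.8 at day 3, 2.56-fold apart and a log2 change of 1.36 ± 0.11. The second changed by 0.92 ± 0.16. Without day 4 replicate 1 the changes were 1.29 and 1.003. Among all genes the brighter probe set had the 114th largest rise.

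The transporter Slc2a1, which encodes GLUT1, was lower at day 4 on all 3 of its probe sets. The brightest, 1434773_a_at, read 1904, 2049 and 1928 at day 4 and 3211, 3540 and 3282 at day 3, with means of 1960 ± 77.9 at day 4 and 3344 ± 173 at day 3. The next, 1426599_a_at, read 801, 793 and 818 at day 4 and 1496, 1517 and 1467 at day 3. The third, 1426600_at, read 184, 362 and 386 at day 4 and 594, 617 and 694 at day 3. On each of them the highest day 4 array was below the lowest day 3 array.

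The Slc2a1 log2 changes were -0.77 ± 0.07, -0.89 ± 0.07 and -1.10 ± 0.25, from the brightest probe set to the dimmest. On the linear scale these were 1.71-fold, 1.86-fold and 2.15-fold lower at day 4. On the third, day 4 replicate 1 was at 49.1% of the mean of the other day 4 arrays, and without it the change was -0.76. On the first and second that array was at 95.8% and 99.4% of the others, and the changes without it were -0.75 and -0.89.

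Slc2a3, which encodes the high-affinity transporter GLUT3, kept a strong signal at both days. Its brightest probe set, 1437052_s_at, read 4016, 4570 and 4547 at day 4 and 5429, 4715 and 4578 at day 3. The second bright one, 1455898_x_at, read 2987, 3017 and 3107 at day 4 and 3841, 3567 and 3316 at day 3. The days did not overlap on either, but on the brightest the nearest arrays, day 4 replicate 2 and day 3 replicate 3, were only 4570 and 4578. The changes were -0.16 ± 0.08 and -0.23 ± 0.07, and -0.10 and -0.22 without day 4 replicate 1. Both carry suffixes that the array uses for probes shared between sequences, and both are annotated from 1 source sequence, so they are not independent readings.

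The other 2 Slc2a3 probe sets were close to the signal limit. The first, 1421924_at, read 1.93, 26.6 and 29.1 at day 4 and 24.9, 21.8 and 13.8 at day 3, so that the days overlapped. Its change was -0.78 ± 0.93 and turned to 0.51 without day 4 replicate 1. The second, 1427770_a_at, read 9.02, 14.4 and 10.2 at day 4 and 27.4, 15.0 and 15.1 at day 3. Its day 4 mean of 11.2 was under the limit, so its change of -0.75 ± 0.42 is imprecise. No size of change is drawn from either.

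Hk2, the hexokinase that is induced by insulin and by low oxygen in many tissues, was lower at day 4. Its only probe set, 1422612_at, read 399, 601 and 482 at day 4 and 938, 1124 and 1105 at day 3. The days did not overlap, and the highest day 4 array was well under the lowest day 3 array. The means were 494 ± 101 at day 4 and 1056 ± 102 at day 3, 2.16-fold apart and a log2 change of -1.11 ± 0.15. Day 4 replicate 1 was at 73.7% of the mean of the other day 4 arrays, and without it the change was -0.97. This was the 281st largest fall among all genes, and the brightest Slc2a1 probe set had the 682nd.

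Hk1, the hexokinase that most tissues express constitutively, did not separate the days. Its brighter probe set, 1437974_a_at, read 73.3, 144 and 106 at day 4 and 111, 115 and 110 at day 3. The day 3 arrays lay together and the day 4 arrays spread to both sides of them, with day 4 replicate 1 the lowest of all 6. The mean was 108 ± 35.4 at day 4 and 112 ± 2.745 at day 3. The log2 change was -0.11 ± 0.22, and 0.14 without day 4 replicate 1, so that 1 array decided its sign. The other Hk1 probe set, 1420901_a_at, read 0.812, 11.9 and 4.55 at day 4 and 1.60, 0.946 and 2.67 at day 3, under the limit on every array, and did not pass the filter.

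**Figure D2:**
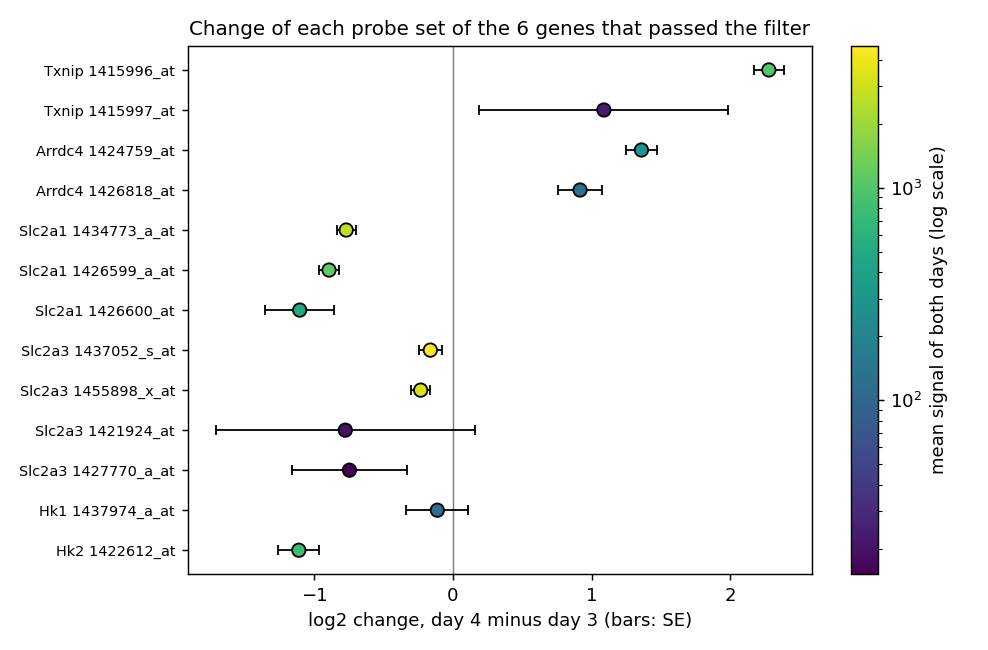
Log2 change, day 4 minus day 3, with its SE, for the 13 probe sets that passed the filter, coloured by mean signal (log scale). Bars are short where signal is high, as for Txnip 1415996_at at 2.28 ± 0.11, and long for the dim probe sets, as for Slc2a3 1421924_at at -0.78 ± 0.93.

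Counted over probe sets, 13 of the 14 passed the filter. Of the 14, 3 had all day 4 arrays above all day 3 arrays, 7 had them below, and 4 overlapped. Over all 22274 probe sets that passed the filter the days did not overlap in 38.9%, 19.9% with day 4 higher and 19.0% with day 4 lower. By gene, the days did not overlap in 41.4% of the 12284, and 5.33% differed by at least 2-fold, while 18.2% of the probe sets passed the adjusted test. Since the 6 genes were chosen on this contrast, nothing is read from their own count. The probe sets of 1 gene share their RNA and are not replicates of the condition.

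**Figure D3:**
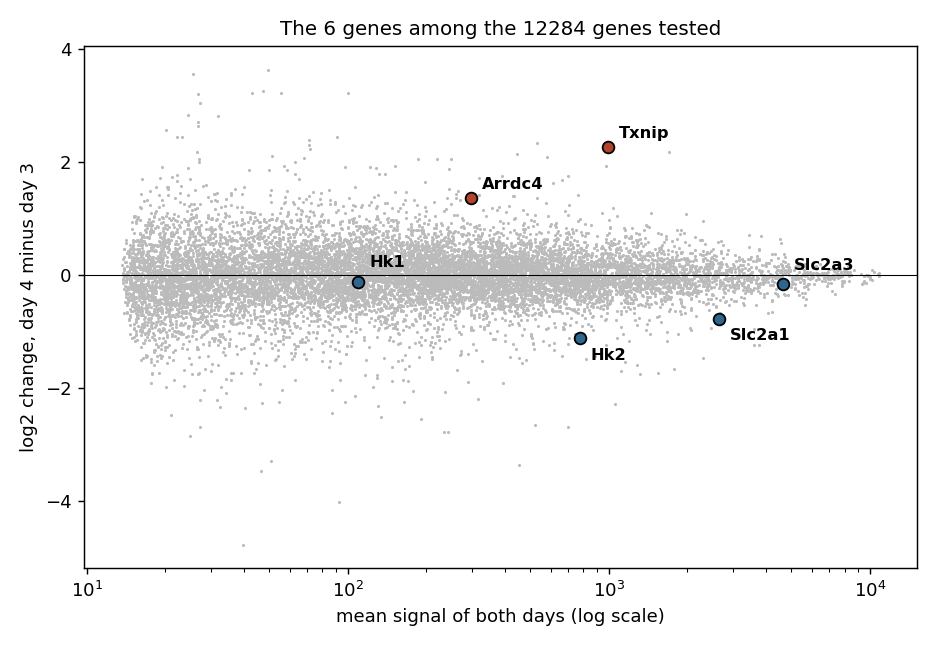
Log2 change, day 4 minus day 3, against mean signal of both days (log scale), for 12284 genes in grey with the 6 genes marked. Txnip at 2.28 and Arrdc4 at 1.36 lie above most genes of their signal, Hk2 at -1.11 and Slc2a1 at -0.77 below, and Slc2a3 at -0.16 and Hk1 at -0.11 near 0.

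The 6 genes were compared over the 6 arrays by the root mean square difference of their log2 signals, each centred on its own mean. Since the difference between the days fills most of this measure, it mainly groups genes that differ between the days by a like amount. The genes nearest to Txnip were Klf10 (0.10), Prdm6 (0.12), Clu (0.13), Id2 (0.13) and Cnr1 (0.15). Klf10 encodes a zinc finger factor induced by TGF-beta, Prdm6 a PR domain factor, Clu the secreted chaperone clusterin, Id2 an inhibitor of basic helix-loop-helix factors and Cnr1 a cannabinoid receptor.

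Klf10 was nearest, with 667, 752 and 765 at day 4 and 146, 185 and 161 at day 3. As in Txnip, day 4 replicate 1 was the lowest of its day and day 3 replicate 2 the highest of its day. Klf10 was chosen for its likeness over these same arrays, so the shared order adds nothing to that likeness. Clu had 2738, 2827 and 2806 at day 4 and 675, 603 and 572 at day 3. Arrdc4 was the 64th nearest gene to Txnip (0.49), with both higher at day 4 by different amounts. Seen from Arrdc4, Txnip was only the 1416th nearest. Slc2a1 was the 121st nearest to Hk2 (0.23), while Hk2 was the 908th nearest to Slc2a1. The genes nearest to Slc2a3 were Pnpla2, a triglyceride lipase (0.02), Slc25a1, the mitochondrial citrate carrier (0.03), and Chic2 (0.03). Their changes were -0.14, -0.15 and -0.17, close to the -0.16 of Slc2a3.

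**Figure D4:**
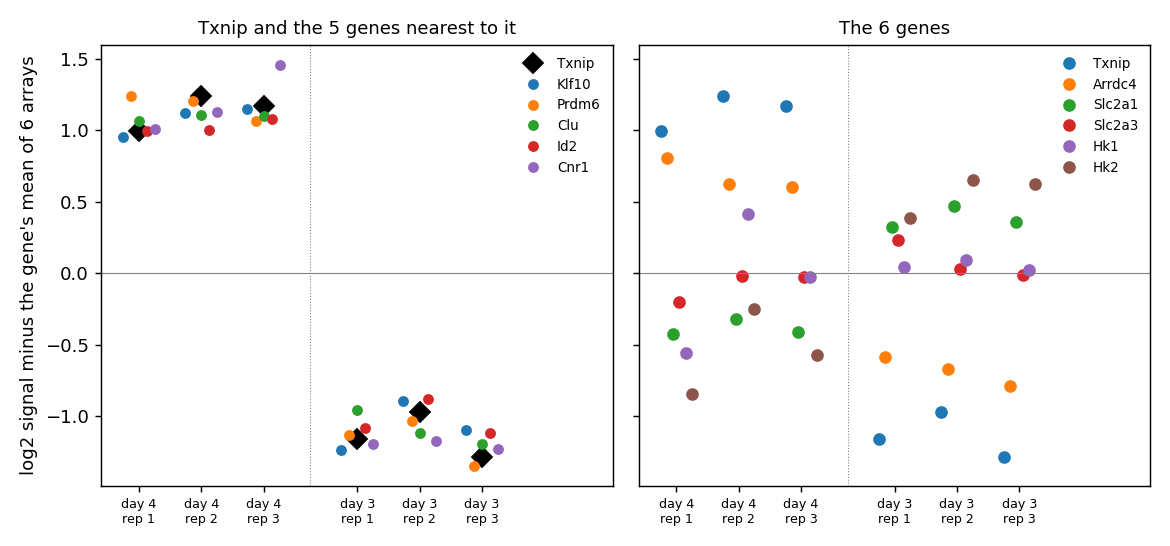
Log2 signal on each array minus the mean of that gene over 6 arrays, day 4 left and day 3 right, for Txnip with its 5 nearest genes and for the 6 genes. The 5 genes were chosen as nearest by the root mean square difference from Txnip, which is 0.10 to 0.15. In the right panel Hk1 at day 4 spreads to both sides of 0.

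Genes around these steps were then counted. Of all 12284 genes, 22.2% passed the test between the days, 11.5% higher and 10.7% lower at day 4 (limma, Benjamini-Hochberg adjusted p under 0.05 over all genes), with a median log2 change of -0.01. Among the sugar-sensing factors and other alpha-arrestins, 1 of 7 tested genes passed, with a list median of -0.32. It was Mlxip, which encodes MondoA. It fell at day 4, with 182, 202 and 230 at day 4 and 277, 303 and 266 at day 3, a log2 change of -0.47 ± 0.12 (adjusted p = 0.0220). The Mlxip call was lost without any 1 day 3 array or without day 4 replicate 2 (adjusted p from 0.0559 to 0.0911), which left 0 genes of the list. Mlx, its partner, had 108 ± 14.6 at day 4 and 146 ± 17.3 at day 3 and did not pass (adjusted p = 0.0676), but passed without day 4 replicate 1 (adjusted p = 0.0237), which made 2 genes of the list. Mlxipl, the related factor ChREBP, was near the limit, at 18.8 ± 4.70 at day 4 and 11.2 ± 5.02 at day 3 (adjusted p = 0.212). Arrdc3, another alpha-arrestin, had 215 ± 33.1 at day 4 and 267 ± 20.6 at day 3 (adjusted p = 0.124). Of the 9 genes of this list, Txnip and Arrdc4 not among them, 2 were too dim to test.

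In the thioredoxin system, to which Txnip binds, 3 of 12 tested genes fell and 0 rose, with a median of -0.19. Prdx1, Prdx5 and Prdx6, also on the list, had no probe set that names them alone. Txn2, mitochondrial thioredoxin, fell by 0.45 on the log2 scale to 393 ± 24.2 at day 4, against 537 ± 9.50 at day 3 (adjusted p = 0.00735). Srxn1, sulfiredoxin, changed by -0.83 ± 0.21, and Txnrd1, cytosolic thioredoxin reductase, by -0.68 ± 0.19 (adjusted p = 0.0209 and 0.0281). Both of the last calls were lost without any 1 day 3 array, and that of Srxn1 also without day 4 replicate 2 or 3 (adjusted p from 0.0510 to 0.105 for the pair), so that 1 gene was left without a day 3 array and 5 passed without day 4 replicate 1. Txn1, the cytosolic thioredoxin that Txnip binds, had 6743, 6911 and 7071 at day 4 and 7145, 6398 and 6591 at day 3, with the days overlapping (adjusted p = 0.626).

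Of the other genes of the sugar transporter families, not all of which carry sugars, 2 of 8 tested rose and 0 fell, with a median of 0.19. Slc5a3, a sodium-coupled inositol transporter, rose, with 2516, 2611 and 2727 at day 4 and 1581, 1719 and 1641 at day 3, a change of 0.67 ± 0.07 (adjusted p = 0.000212). Slc2a12, which encodes GLUT12, rose by 1.03 ± 0.29 at a low level, 44.8 ± 1.86 at day 4 and 22.9 ± 8.87 at day 3 (adjusted p = 0.0293). Leaving out any 1 array other than day 3 replicate 3 and day 4 replicate 1 ended that call (adjusted p from 0.0710 to 0.0945), and 1 gene was left. Slc2a8 and Slc2a10 did not pass, at 99.6 ± 7.001 and 25.6 ± 5.73 at day 4 against 86.9 ± 17.6 and 22.5 ± 2.76 at day 3 (adjusted p = 0.407 and 0.702). The remaining 5 of the 13 genes, Slc2a2, Slc2a6, Slc2a9, Slc5a1 and Slc5a9, were too dim to test.

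Beside Hk1 and Hk2, 10 other genes of hexose phosphorylation and its first branches were tested, and 0 passed in limma, with 0 at an unadjusted p under 0.05 and 0 without any 1 array. Their changes lay between -0.16 and 0.26, with a median of 0.07. Hk3 was at 16.3 ± 1.28 at day 4 and 14.1 ± 4.40 at day 3, near the limit, and 2 other genes of the list were too dim to test. Gpi1, Galk1 and G6pdx had no probe set that names them alone and were not analysed here.

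Below hexokinase, 9 of 17 tested genes of glycolysis and lactate export passed, 4 higher and 5 lower, or 52.9%, with a median of -0.16. Of the 20 genes on the list, Gapdh, Eno1 and Pfkfb1 had no probe set that names them alone, controls aside, and were not tested. Pfkl, the liver-type phosphofructokinase, fell by 0.47 on the log2 scale to 1257 ± 83.3 at day 4, against 1740 ± 47.8 at day 3 (adjusted p = 0.00250). Another, dimmer Pfkl probe set lay higher at day 4, at 82.9 ± 4.45 against 59.2 ± 4.64. Tpi1, triosephosphate isomerase, and Pgam1, phosphoglycerate mutase, changed by -0.32 ± 0.07 and -0.26 ± 0.06 (adjusted p = 0.00888 and 0.0123). Pkm, pyruvate kinase, changed by -0.33 ± 0.08, and Slc16a3, the lactate exporter MCT4, by -0.89 ± 0.23 (adjusted p = 0.0143 and 0.0211). Aldoc, an aldolase, rose by 1.02 ± 0.13 to 142 ± 8.72 at day 4, against 70.1 ± 3.99 at day 3 (adjusted p = 0.000716). The other 3 higher genes were chosen for naming after their values were seen. They were Pfkm and Pfkp, the muscle-type and platelet-type phosphofructokinases, which rose by 0.52 ± 0.15 and 0.35 ± 0.09 (adjusted p = 0.0345 and 0.0220), and Pfkfb2, which makes an activator of phosphofructokinase and rose by 0.67 ± 0.20 (adjusted p = 0.0392). Pfkp had 494 ± 11.5 at day 4 and 389 ± 17.01 at day 3.

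Several of these calls rested on single arrays. Without day 3 replicate 3 that of Tpi1 was lost (adjusted p = 0.0531), without day 3 replicate 1 or 2 that of Pkm (adjusted p = 0.0571 and 0.0511), and without any 1 day 3 array that of Slc16a3 (adjusted p from 0.0554 to 0.0863). The list count was 12 without day 4 replicate 1, 5 higher and 7 lower, and 4 without day 3 replicate 2 or 3, 1 higher and 3 lower. Without day 4 replicate 2 or 3 it was 6, 1 higher and 5 lower. Aldoc was the 1 higher gene in each of these 4 cases, so the calls of Pfkp, Pfkm and Pfkfb2 were lost there. Ldha, lactate dehydrogenase A, had 5279, 7020 and 7177 at day 4 and 8135, 7576 and 7621 at day 3. The days did not overlap, but the test was not passed (adjusted p = 0.0924). Slc16a1, the lactate carrier MCT1, had 3349 ± 277 at day 4 and 3576 ± 21.6 at day 3 (adjusted p = 0.346, and 0.0381 without day 4 replicate 1). Pfkfb3, a gene of the same family as Pfkfb2, had 124 ± 6.75 at day 4 and 118 ± 9.94 at day 3 (adjusted p = 0.715).

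Genes of transporter trafficking, which bring GLUT proteins to and from the surface, passed in 2 of 17 tested, 1 higher and 1 lower, or 11.8%, with a median of -0.14. Rab11a, a GTPase of recycling endosomes, rose by 0.36 ± 0.10, and Cltc, the clathrin heavy chain, changed by -0.32 ± 0.08 (adjusted p = 0.0252 and 0.0243). Both calls were lost without day 3 replicate 2 or 3, and that of Cltc also without day 4 replicate 2 (adjusted p from 0.0629 to 0.116), which left 0, 0 and 1. The count was 3 without day 4 replicate 1.

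Of the kinases and ubiquitin ligases that act on Txnip or on glucose uptake, 4 of 23 tested passed, 3 higher and 1 lower, or 17.4%, with a median of 0.03. Insr, the insulin receptor, rose, with 447, 684 and 635 at day 4 and 268, 299 and 297 at day 3, a change of 1.01 ± 0.15 (adjusted p = 0.00185). Igf1r, the receptor of insulin-like growth factor, rose by 0.62 ± 0.10, and Tsc1, a restraint on mTOR, by 0.46 ± 0.15 (adjusted p = 0.00286 and 0.0492). The Tsc1 call was lost without any 1 array other than day 4 replicate 3 (adjusted p from 0.0503 to 0.140). Nedd4l, a HECT ubiquitin ligase, changed by -0.93 ± 0.19 (adjusted p = 0.00711). Itch, the ligase known to mark Txnip for degradation, did not pass, at 432 ± 76.7 at day 4 and 522 ± 39.3 at day 3 (adjusted p = 0.168), and 2 dimmer Itch probe sets lay higher at day 4.

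Other targets of hypoxia-inducible factor passed in 5 of 14 tested, 2 higher and 3 lower, or 35.7%, with a median of -0.11. Higd1a, a mitochondrial protein, fell by 0.67 on the log2 scale to 2065 ± 85.4 at day 4, against 3281 ± 235 at day 3 (adjusted p = 0.000300). Egln3, a prolyl hydroxylase that acts on the factor, changed by -0.67 ± 0.11 (adjusted p = 0.00228). Vegfa, the vascular growth factor, rose by 1.34 ± 0.23, and Mxi1, a Myc antagonist, by 0.53 ± 0.10 (adjusted p = 0.00345 and 0.00531). The count was 6 without day 4 replicate 1. The list held changes of both signs. Genes of the glycolysis list were not counted here, whether or not the factor acts on them, and Bnip3l had no probe set that names it alone. The part of the factor in the lower Slc2a1 and Hk2 was not tested.

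**Figure D5:**
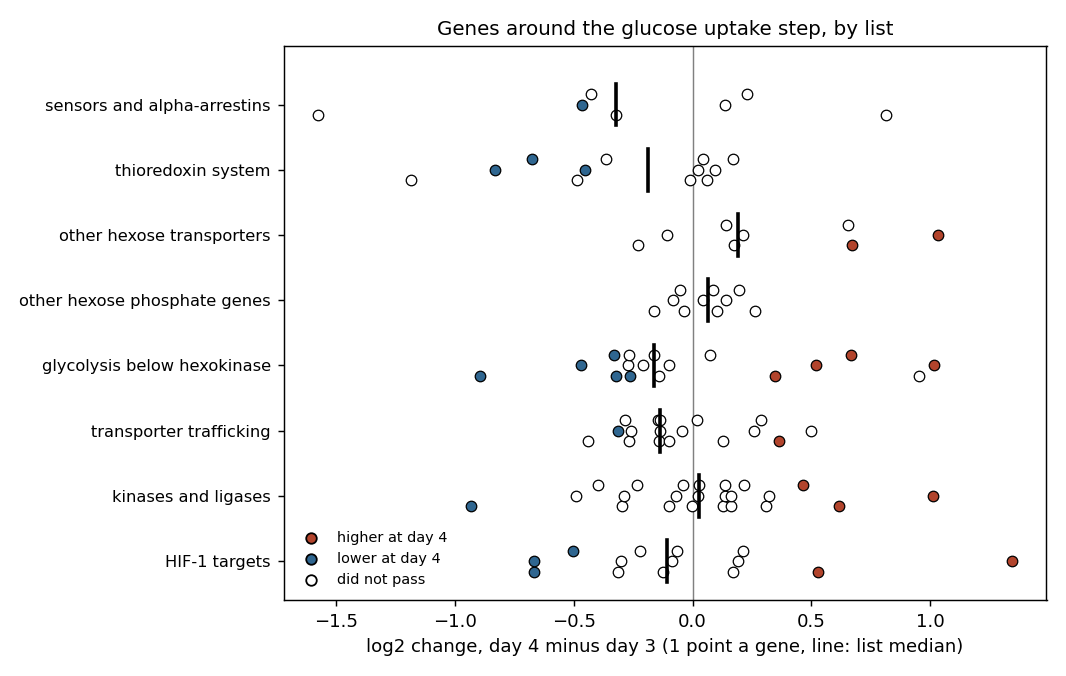
Log2 change, day 4 minus day 3, of each tested gene on the 8 lists around glucose uptake, filled where the gene passed limma at an adjusted p under 0.05 and open where it did not, with the list median as a line. The hexose phosphate list has 0 filled points and changes from -0.16 to 0.26, and the glycolysis list has 4 higher and 5 lower.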

How the data were processed

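RNA of Venus-positive cells was amplified in a double round into biotin-labelled cRNA and hybridised to 1 array per sample, per the labels' protocols. Those protocols name both Trizol and an RNeasy kit without saying which sample had which. The deposited values are signal intensities made by the authors with MAS5, per the submitters' processing notes. The sources used here give no software version, scaling target or detection calls.

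Log2 of the intensities was analysed in R 4.3.3 with limma 3.58.1. Probe sets with 1 gene symbol were used (34945), those with several (932) were not, and 34741 matched a RefSeq gene. Each gene was read by its brightest probe set (mean log2 signal), and those above the 40th percentile, a signal of 13.5 that also serves as the lower limit, were tested (12284 genes, and 22274 probe sets on their own). The model had day as its only term, fitted by lmFit and moderated by trended eBayes, and p-values were 2-sided and Benjamini-Hochberg adjusted, with a threshold of 0.05. SEs of the 6 genes come from the fit over probe sets. The number of arrays, 3 per day, limits the precision.

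The 6 genes and the lists were chosen with earlier results of these data known. Named list genes were a set of 16, of which 1 is not reported here, and up to 4 per list with the smallest p among those that passed, plus the 5 genes nearest to Txnip and the 3 nearest to Slc2a3. Same-numbered replicates did not deviate together (Pearson r of 0.067, 0.012 and -0.00090 over genes), so the replicate number was not used as a pairing. Alternatives were an offset of 4.14 before log2, quantile normalization, median centring, no filter, the 60th percentile, the mean over probe sets, dropping suffixed probe sets (_x_at, _s_at, _a_at), eBayes without trend, array weights, a replicate block, a threshold of 0.10 and leaving out each array.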

Additional observations from a re-analysis of the deposited data

How the results depend on the processing

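The direction of Txnip, Arrdc4, Slc2a1, Slc2a3 and Hk2 held under every alternative run, and that of Hk1 did not. With the mean over probe sets the log2 changes were 1.68 for Txnip, 1.14 for Arrdc4, -0.92 for Slc2a1, -0.48 for Slc2a3 and 0.52 for Hk1, dim probe sets included. Without the suffixed probe sets Slc2a1 was at -1.10 and Slc2a3 at -0.78, and Hk1 had none left. That Slc2a3 value is the dim 1421924_at alone, whose own sign was not stable, so this run adds nothing on the direction of Slc2a3. With array weights Hk1 was at 0.15, Slc2a3 at only -0.08 and Slc2a3 1421924_at at 0.32. Leaving out each array gave 2.20 to 2.36 for Txnip, 1.29 to 1.41 for Arrdc4, -0.80 to -0.73 for Slc2a1, -0.21 to -0.09 for Slc2a3, -0.35 to 0.14 for Hk1 and -1.26 to -0.97 for Hk2, and -1.45 to 0.51 for Slc2a3 1421924_at. The signs of Hk1 and of Slc2a3 1421924_at turned only without day 4 replicate 1 among these. The cause was not tested.

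Of the 12284 genes 2729 passed, 1796 with the mean over probe sets, 4312 with array weights and 1582 to 3530 when an array was left out. Of the probe sets 4055 passed, 6672 with array weights and 1975 to 5452 when an array was left out. The replicate block gave 2885 genes and 4069 probe sets and left the changes of the 6 genes as they were. Of the named genes it ended the call of Tsc1 (adjusted p = 0.0547) and changed no other call.

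List counts moved as follows. With the mean over probe sets they were 1 for transporters, 5 for glycolysis, 1 for kinases and ligases and 2 for targets of hypoxia-inducible factor. Without suffixed probe sets they were 0 for thioredoxin, 1 for transporters and 1 for trafficking. Without trend they were 4 for glycolysis and 0 for trafficking. With array weights they were 2 for sensors and 6 for trafficking, with quantile normalization 2 for sensors, and with no filter or the 60th percentile 1 for transporters. At a threshold of 0.10 they were 2 for sensors, 6 for thioredoxin and 4 for trafficking. With an array left out they ranged from 0 to 2 for sensors, 1 to 5 for thioredoxin, 1 to 2 for transporters, 4 to 12 for glycolysis and 0 to 3 for trafficking. Signs turned with the mean over probe sets for Txn1 (-0.11), Itch (0.10) and Insr (-0.087), without suffixed probe sets for Pfkl (0.49), Rab11a (-0.18) and Nedd4l (0.20), and without day 4 replicate 3 for Slc2a10 (-0.0029, with up to 0.29 when another array was left out).

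MAS5 values near the limit scatter widely on a log scale. RNA level is not transport, and neither protein nor glucose uptake was measured.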
